A study of Homo sapiens with 6 samples.

Results

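Cancer-testis antigens are proteins made in the male germ line and in some tumours and hardly at all in other adult tissues. The gene families described here were MAGEA, MAGEB, MAGEC, SPANX, GAGE, XAGE, PAGE, CTAG, CSAG, CT45A, CT47A and SSX. Members were taken by the letters of their symbols, and the families had been chosen with earlier results of these data known. Of the 23617 gene symbols measured in MDA-MB-231, 118 carried the letters of these families. Of these, 106 belonged to the antigen families, all of them on chromosome X. The other 12 were taken in by their letters and are not antigens of these families: 9 symbols starting with CTAGE, SSX2IP, the transcript SPANXA2-OT1 and the read-through MAGEA10-MAGEA5. In HMLER, 17 of the 1854 listed symbols carried these letters, 16 of them antigens.

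Most of these families arose by local duplication on chromosome X, so that many members are near copies of each other. In somatic cells their CpG-containing promoters are methylated and silent, and loss of DNA methylation is known to permit their transcription. MAGE proteins bind and steer RING-type ubiquitin ligases, SPANX proteins belong to the nucleus of the sperm, SSX proteins are transcriptional repressors known from the fusions of synovial sarcoma, and CTAG1B encodes NY-ESO-1, a target of T-cell therapy. Decitabine (DAC) is a cytidine analog that traps DNA methyltransferases and so lowers DNA methylation as cells divide.

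The question addressed was which genes were re-expressed when DNA methylation was inhibited in cultured mammary cells. MDA-MB-231 was established from a human breast cancer. HMLER cells are mammary cells transformed in culture, and they were grown with EGF, hydrocortisone, puromycin and insulin. DAC-treated cells of both lines had received 10 µM for 72 h, and untreated cells of the same lines served as controls. MDA-MB-231 had 1 library per condition and HMLER had 2, each made from pooled extractions of polyadenylated RNA. The untreated MDA-MB-231 library, the only control for every MDA-MB-231 comparison below, carries a different line number in 1 of its labels, and its title was followed. In the untreated MDA-MB-231 library VIM, an intermediate filament of mesenchymal-like cells, was at 3066 FPKM, while the hormone receptors ESR1 and PGR and the epithelial cadherin CDH1 were at 0. No such check was possible in HMLER, whose table holds few genes.

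Levels are FPKM, fragments scaled by transcript length and by the number of mapped fragments. Over all transcripts of MDA-MB-231, FPKM totalled 589238 untreated and 480455 after DAC. For HMLER a single merged value per condition was given, and only transcripts over 2-fold higher and above 1 FPKM after DAC are in the table. A member missing from it may therefore have been unchanged, lower, or higher at under 1 FPKM. No replicate spread could be computed in either line, and no difference below has a replicate check or a test. The intervals given with MDA-MB-231 levels are the bounds of the authors' Cuffdiff run for 1 library. In these bulk libraries, more cells with an RNA and more RNA per cell cannot be told apart.

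Promoter windows of MAGEB2, MAGEB1, MAGEC1 and MAGEC2, the MAGE genes called higher in MDA-MB-231, shared a short motif, which is why their sequences are shown first. Of the 106 antigen symbols, 63 had an entry in the RefSeq promoter table (GRCh38.p14), with 77 windows of 300 bases. A window runs from 250 bases before to 50 after the annotated start. Each line below gives the 150 bases directly before the start, from 5′ to 3′ on the gene's strand, with GRCh38.p14 positions. Capitals mark CCGGATGT, an ETS-type motif with the GGAT core bound by that family of transcription factors, and the motif contains a CpG. MAGEB1 has another annotated start, whose window held none of the motifs searched and 1 CpG (stretch before the start at chrX:30243581-30243730), and only the start with the motif is shown.
MAGEB2, chrX:30215413-30215562, plus strand: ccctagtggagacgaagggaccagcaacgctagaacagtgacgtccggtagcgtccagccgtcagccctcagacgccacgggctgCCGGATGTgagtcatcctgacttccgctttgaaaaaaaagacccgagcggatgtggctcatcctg
MAGEB1, chrX:30246996-30247145, plus strand: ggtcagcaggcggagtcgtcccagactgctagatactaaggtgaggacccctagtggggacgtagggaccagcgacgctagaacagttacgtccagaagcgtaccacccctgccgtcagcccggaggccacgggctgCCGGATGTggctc
MAGEC1, chrX:141903744-141903893, plus strand: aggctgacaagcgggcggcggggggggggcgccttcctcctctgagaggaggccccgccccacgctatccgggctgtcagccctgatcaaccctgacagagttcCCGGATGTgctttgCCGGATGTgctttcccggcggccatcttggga
MAGEC2, chrX:142205291-142205440, minus strand: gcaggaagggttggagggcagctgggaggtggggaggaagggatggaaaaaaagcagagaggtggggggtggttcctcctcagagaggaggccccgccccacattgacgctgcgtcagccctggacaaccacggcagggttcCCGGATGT
MAGEA12, chrX:152733712-152733861, plus strand: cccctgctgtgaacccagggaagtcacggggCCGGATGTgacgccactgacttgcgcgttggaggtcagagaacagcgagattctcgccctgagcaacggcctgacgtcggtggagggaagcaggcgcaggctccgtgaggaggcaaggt
MAGEA3, chrX:152698644-152698793, plus strand: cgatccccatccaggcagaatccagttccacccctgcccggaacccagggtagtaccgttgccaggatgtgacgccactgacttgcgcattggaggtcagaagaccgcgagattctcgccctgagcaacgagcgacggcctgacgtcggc

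CCGGATGT, searched on both strands, lay in 26% of the antigen windows and in 0.701% of all 35116 promoter windows. Within the MAGEA family it lay in 81.2% of 16 windows, 5 of which belong to MAGEA4. MAGEC1 carried it 2 times in the stretch shown. The related ETS-type motif CCGGAAGT lay in 2.6% of the antigen windows and in 4.14% of all windows. The window of MAGEB6 and a window of MAGEB16 held that form. The windows of MAGEA3 and MAGEA6 differed by 0 of 300 bases and held neither motif. Over the 20 bases that begin with the motif of MAGEA12, the best match in MAGEA3 had 1 difference, C2A, counted from 1 at the 5′ base of the motif and written as the MAGEA12 base, the position and the MAGEA3 base. This place in MAGEA3 therefore lacked the CpG of the motif. The motifs were picked after the promoter sequences had been read, family members share ancestry, and a match describes letters and not binding.

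A different motif recurred in the GAGE, PAGE and XAGE families, and none of the searched motifs was found in SPANX. In the next lines, again 150 bases before the start in GRCh38.p14, capitals mark TGCGCATG, part of the palindrome bound by the factor NRF1. These were chosen because PAGE5 and SPANXC had the highest levels in HMLER, while GAGE1 was listed at 0 in MDA-MB-231 and was not listed in HMLER.
PAGE5, chrX:55220196-55220345, plus strand: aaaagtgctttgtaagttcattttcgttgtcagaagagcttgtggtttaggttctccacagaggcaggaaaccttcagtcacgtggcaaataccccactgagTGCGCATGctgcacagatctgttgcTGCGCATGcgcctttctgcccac
PAGE1, chrX:49695985-49696134, minus strand: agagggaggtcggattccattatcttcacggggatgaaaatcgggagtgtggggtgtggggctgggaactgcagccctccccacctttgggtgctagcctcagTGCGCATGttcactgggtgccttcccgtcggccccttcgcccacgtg
GAGE1, chrX:49598863-49599012, plus strand: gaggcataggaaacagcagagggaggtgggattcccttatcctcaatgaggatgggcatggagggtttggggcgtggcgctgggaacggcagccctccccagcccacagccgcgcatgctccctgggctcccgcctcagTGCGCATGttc
SPANXC, chrX:141242518-141242667, minus strand: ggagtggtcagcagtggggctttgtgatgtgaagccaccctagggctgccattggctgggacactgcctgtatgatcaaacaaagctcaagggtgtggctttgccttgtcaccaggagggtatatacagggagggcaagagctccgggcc

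TGCGCATG lay on either strand in 81.5% of the 27 windows of GAGE, PAGE and XAGE antigens, in 100% of the 13 GAGE windows and in 2.18% of all windows. The GAGE windows are near copies and do not count as separate observations. Among the 15 windows of antigens that were higher in MDA-MB-231 or listed in HMLER, 46.7% held an ETS-type motif, against 24.2% of the 62 windows of the other antigens. Of the 7 such windows in the first group, 3 (CSAG1 and both MAGEA12 windows) overlap at 1 place and hold the same site. The NRF1-type motif had the opposite order, with 20% and 30.6%. Of the 19 windows with it among the other antigens, 13 were GAGE windows, so this order rests on near copies. Neither contrast was tested. The motifs were picked after these same sequences had been read, so the windows compared are those that led to the choice. The other antigens also include members at more than 1 locus, such as SSX4 and MAGEA9, whose transcription could not be read. The percentages therefore describe these windows and do not show whether a motif goes with a higher level after DAC. The median number of CpG dinucleotides per window was 11 in the antigen families and 14 over all windows.

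**Figure D1:**
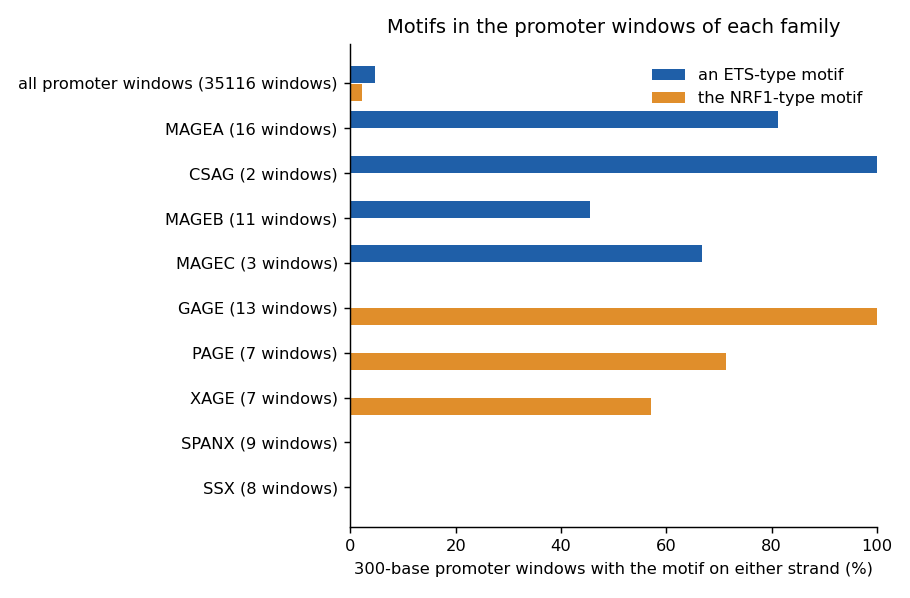
Percentage of 300-base promoter windows that hold an ETS-type motif (blue) or the NRF1-type motif (orange) on either strand, by family, with the number of windows in brackets. MAGEA stands at 81.2% for the ETS-type motifs and GAGE at 100% for the NRF1-type motif, while SPANX and SSX have none of either.

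In MDA-MB-231 the families together went from a summed 10.3 FPKM in the untreated library to 29.6 FPKM after DAC, and a few genes made up most of that difference. Each symbol is represented by its most abundant transcript over both libraries. The MAGEB sum went from 0.177 to 11.9 FPKM, SPANX from 0 to 5.49 FPKM and MAGEC from 0.0606 to 3.61 FPKM. MAGEA changed less, from 2.85 to 4.23 FPKM, and CSAG went from 1.39 to 2.31 FPKM. PAGE went from 0.0772 to 0.873 FPKM, and CTAG, CT45A and SSX from 0 to 0.443, 0.443 and 0.394 FPKM. The XAGE sum went from 5.75 FPKM to 0. GAGE, with 22 symbols, and CT47A, with 9, were listed at 0 in both libraries.

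A symbol was called higher when DAC was over 2-fold above untreated and at least 1 library reached 1 FPKM. By this rule 6 of the 106 antigens (5.66%) were higher in MDA-MB-231: MAGEB1, MAGEB2, MAGEC1, MAGEC2, SPANXC and SPANXE. The share over all symbols was 6.05%, so the share of antigens called was near that of all genes. One antigen, XAGE1A, was lower (0.943%), against 3.07% of all symbols. Of the 99 antigens under 0.1 FPKM in the untreated library, 5 reached 1 FPKM after DAC (5.05%), and over all symbols that low the share was 3.12%. Over the 10 antigens that reached 1 FPKM in either library the median log2 change was 1.20, with 1 FPKM added to each value. The same median over all 12396 such symbols was -0.09. A low-level antigen passed this filter only where its DAC level was high, so the median describes those 10 and not the families.

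Most of the other differences lay below 1 FPKM. Summed over its transcripts, 17 of the 106 antigens were above 0 in the untreated library and 33 after DAC. Of these, 19 were above 0 only after DAC, 14 in both libraries and 3 only untreated, and 70 were at 0 in both. The DAC value was the larger one in 31 antigens and the smaller one in 5. That split was not computed over all symbols, so it is not read as particular to the antigens. Among antigens at 1 locus and at 0 in the untreated library, 19 of 48 were above 0 after DAC (39.6%). The share among all such symbols was 30.8%, and among the other symbols of chromosome X it was 31.3% of 284. Over all symbols, 18253 were above 0 in the DAC library and 16540 in the untreated one.

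**Figure D2:**
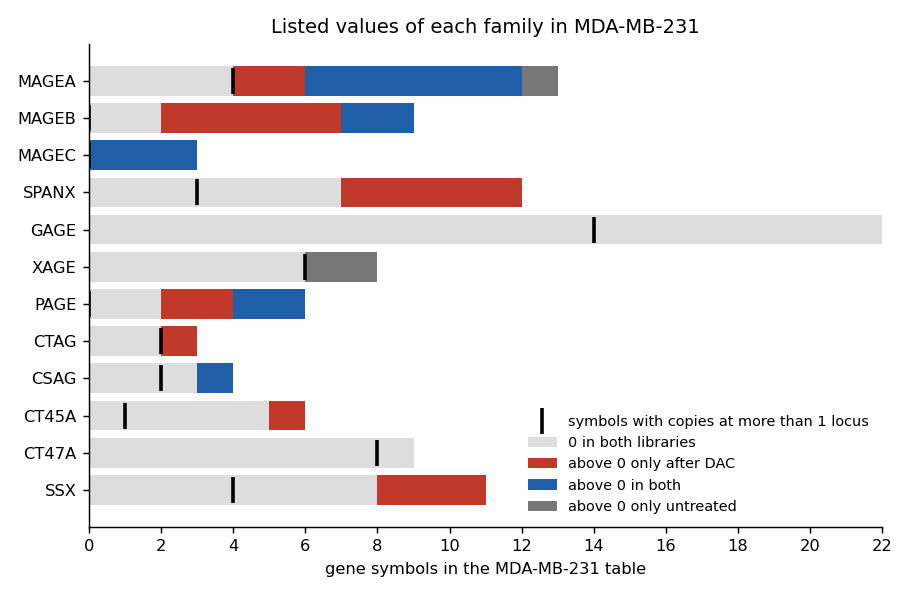
Number of gene symbols per family by listed value in MDA-MB-231: at 0 in both libraries (light grey), above 0 only after DAC (red), above 0 in both (blue) and above 0 only untreated (dark grey). Black ticks give the number of symbols with copies at more than 1 locus: 14 of the 22 GAGE symbols and 8 of the 9 CT47A symbols, and both families lie wholly at 0.

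A value of 0 does not show that a multicopy member was silent. RefSeq accessions that sit at more than 1 locus of the genome were at 0 in both libraries for 92.1% of 3612 transcripts, against 22.6% of the 39885 at 1 locus. BAG6 and the histone methyltransferase EHMT2, genes used by most cells, were among them, with all 42 and all 14 transcripts at 0. Of the 106 antigens 44 were at more than 1 locus, and 41 of these were at 0 in both libraries. CTAG1B, both SSX4 copies and most of GAGE and CT47A are in this group, and whether they were transcribed could not be read from these values.

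How far a member can be told from its copies was measured as the share of 50-base windows of its exons that occur once on chromosome X (hg19), which could be computed for 93 antigens. Where at least 50% of windows were unique, 25 of 37 antigens were above 0 after DAC (67.6%) and 11 were listed in HMLER (29.7%). Where fewer were unique, 5 of 56 were above 0 after DAC (8.93%) and 3 were listed in HMLER (5.36%). The limit of 50% was set after the values were known. The split also depends on window length. By 100-base windows, MAGEA3 (56.4%), MAGEA6 (63.1%), PAGE2B (56.1%) and SPANXD (87.0%) of those 5 passed the limit, and SPANXC (45.7%) did not. Shares below are for 50-base windows unless stated. No antigen without a unique window was above 0 after DAC, among 37. Members with at least 50% unique windows that were still at 0 in both libraries numbered 12. Among them were MAGEB4, MAGEB5, PAGE3, PAGE4, XAGE3, XAGE5 and GAGE1. The 91.1% of GAGE1 came from 2842 windows, while GAGE12D, with 0% unique, had 316. How far each of the 2 GAGE1 transcripts is resolved was not computed, so its 0 is less certain. For MAGEB4, MAGEB5, PAGE3 and PAGE4 100% of the windows were unique.

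**Figure D3:**
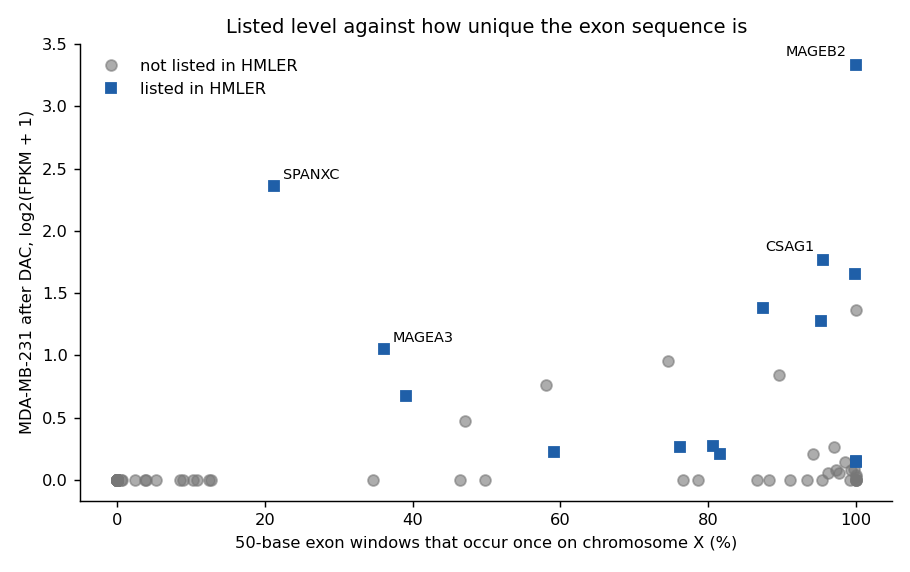
MDA-MB-231 level after DAC, as log2(FPKM + 1) summed over transcripts, against the percentage of 50-base exon windows that occur once on chromosome X, for 93 antigens. Grey circles are antigens not listed in HMLER and blue squares those listed there. SPANXC (21.2% unique) and MAGEA3 (36.1%) stand above 0 on the left, MAGEB2 is at the top right, and points at 0 gather at the left edge.

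MAGEB2, a ubiquitin ligase regulator of the MAGEB cluster (hg19 chrX:30233675-30238206), had the highest DAC level of the antigens in MDA-MB-231. It was at 0.150 FPKM (0 to 0.445) in the untreated library and at 9.09 FPKM (2.63 to 15.5) after DAC, a ratio of 60.6, and the bounds did not overlap. The low values of this table are whole multiples of what 1 read is worth. Carried up to higher levels, that step gave 9 reads untreated and 543 after DAC. The exact Poisson 95% intervals of those reads were 4.12 to 17.1 and 498 to 591, and such intervals cover counting error only. In HMLER MAGEB2 went from 0 to 19.6 FPKM. All of its exon windows were unique (100%).

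The other MAGEB genes, not all of them close to MAGEB2 on the chromosome, were weaker. MAGEB1, whose listed locus (hg19 chrX:30260057-30270155) also takes in MAGEB4, was at 0 untreated and at 1.57 FPKM (0 to 3.65) after DAC, and it was not listed in HMLER. MAGEB6 went from 0.0269 to 0.798 FPKM, or from 2 to 59 reads. MAGEB10 went from 0 to 15 reads and MAGEB3 from 0 to 14, each at under 1 FPKM. MAGEB18 had 2 reads and MAGEB16 1 read after DAC, against 0 untreated, and a count of 0 allows up to 3.69 reads by the same exact interval. In all, 7 of the 9 MAGEB symbols had a DAC value above the untreated one, and MAGEB4 and MAGEB5 stayed at 0.

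MAGEC1 and MAGEC2, MAGE antigens of a distal cluster, were near 0 in the untreated library and passed 1 FPKM after DAC. MAGEC1 (hg19 chrX:140991642-140997187) was at 0.0057 FPKM (0 to 0.0219) untreated and at 1.43 FPKM (0.0647 to 2.79) after DAC, with bounds that did not overlap, from 1 read (0.025 to 5.57) and 249 reads (219 to 282). MAGEC2 (hg19 chrX:141290128-141293076) was at 0.0393 FPKM (0 to 0.130) and 2.15 FPKM (0 to 4.56), from 3 reads (0.619 to 8.77) and 163 reads (139 to 190), and its bounds overlapped. MAGEC3, the other member, stayed under 0.1 FPKM, at 0.0156 and 0.0335 FPKM. In HMLER MAGEC1 went from 0 to 1.13 FPKM and MAGEC2 from 0 to 1.78 FPKM, and MAGEC3 was not listed. MAGEC1 and MAGEC2 were the only listed antigens with a lower DAC level in HMLER than in MDA-MB-231.

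SPANXC had the highest level of any antigen in HMLER. It was at 0 untreated and 4.13 FPKM (0 to 11.5) after DAC in MDA-MB-231, and went from 0 to 41.3 FPKM in HMLER. SPANXE was at 0 and 1.20 FPKM (0 to 3.45) in MDA-MB-231, and it reached 10.3 FPKM from 0 in HMLER. SPANX members resemble each other closely: 21.2% of the SPANXC windows were unique, and SPANXE shares its hg19 position, chrX:140785568-140786655, with SPANXD, so the split between them is uncertain. SPANXA1, SPANXA2 and SPANXB1, with 0% unique windows, were listed at 0. SPANXN3 and SPANXN4 were at 0 untreated and at 0.0605 and 0.104 FPKM after DAC.

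Several MAGEA genes had RNA in untreated MDA-MB-231 and were at 0 in untreated HMLER. MAGEA3, a partner of the ligase TRIM28 and a vaccine antigen, was at 1.20 FPKM (0 to 2.90) in untreated MDA-MB-231 and at 1.07 FPKM (0 to 3.27) after DAC, or 78 reads (61.7 to 97.3) and 69 reads (53.7 to 87.3). In HMLER it was at 0 untreated and at 3.97 FPKM after DAC. MAGEA12 was at 1.01 and 1.40 FPKM in MDA-MB-231, and at 0 and 2.45 FPKM in HMLER. Summed over its transcripts, the direction of MAGEA12 in MDA-MB-231 turned, with 1.73 FPKM untreated and 1.60 FPKM after DAC. MAGEA6 was at 0.502 and 0.600 FPKM in MDA-MB-231, and at 0 and 1.70 FPKM in HMLER. The ratios of DAC to untreated in MDA-MB-231 were 0.890 for MAGEA3, 1.39 for MAGEA12 and 1.20 for MAGEA6, none past the 2-fold threshold. Only 36.1% of the MAGEA3 and 39.1% of the MAGEA6 windows were unique, so reads may have been shared between them. By 100-base windows the shares were 56.4% and 63.1%. MAGEA12 stood at 87.4% by 50-base windows.

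MAGEA1, the first MAGE antigen to be described, was low in MDA-MB-231 in both conditions. It had 5 reads (1.62 to 11.7) untreated and 7 (2.81 to 14.4) after DAC, at 0.0779 and 0.110 FPKM, and this difference lies within counting error. In HMLER it went from 0 to 3.65 FPKM, with 100% unique windows. MAGEA4 was at 0.0118 FPKM untreated and 0.931 FPKM (0 to 2.74) after DAC in MDA-MB-231, and it was not listed in HMLER, where a rise to under 1 FPKM would not be seen. CSAG1, whose promoter stretch in the RefSeq table lies head to head with that of MAGEA12, was at 1.39 FPKM (0 to 3.85) and 2.31 FPKM (0 to 6.52) in MDA-MB-231. In HMLER it went from 0 to 4.96 FPKM.

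**Figure D4:**
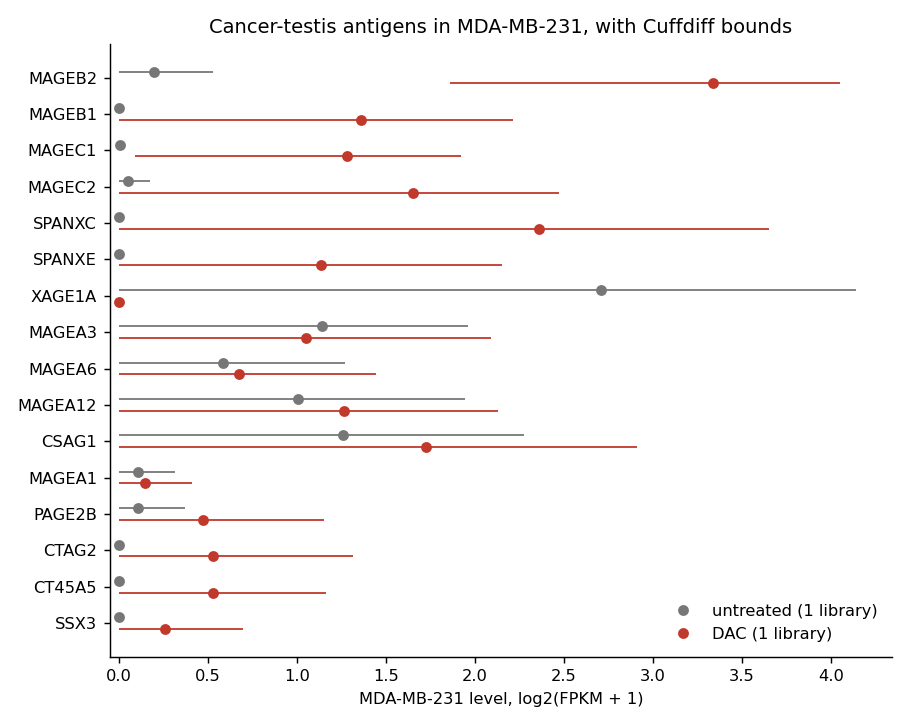
Levels in MDA-MB-231 as log2(FPKM + 1) for 16 antigens, untreated (grey) and after DAC (red), 1 library each, with lines for the Cuffdiff bounds. The bounds separate for MAGEB2 and MAGEC1 and overlap for the other genes drawn, and MAGEA3 and MAGEA6 have nearly the same level in both libraries.

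The 6 symbols of PAGE, SSX and CT45A that were listed in HMLER were at 0 there untreated and above 2 FPKM after DAC, while their DAC levels in MDA-MB-231 were below 0.5 FPKM. PAGE5 reached 21.5 FPKM in HMLER, and its transcript was at 0 untreated and at 0.211 FPKM after DAC in MDA-MB-231. PAGE1 reached 4.42 FPKM in HMLER and 0.103 FPKM in MDA-MB-231, and PAGE2 3.92 and 0.171 FPKM. PAGE2B, the highest PAGE member in MDA-MB-231, was at 0.0772 and 0.388 FPKM there and was not listed in HMLER. SSX3 reached 2.87 FPKM in HMLER and 0.199 FPKM in MDA-MB-231, both from 0. SSX1 reached 2.13 FPKM in HMLER and 0.158 FPKM in MDA-MB-231, from 0 to 7 reads (2.81 to 14.4). CT45A5 reached 5.12 FPKM in HMLER and 0.443 FPKM in MDA-MB-231, through different transcripts of the symbol. CTAG2, also called LAGE-1, went from 0 to 0.443 FPKM (0 to 1.49) in MDA-MB-231 and was not listed in HMLER.

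XAGE1A was the one antigen called lower in MDA-MB-231. It was at 5.53 FPKM (0 to 16.6) untreated and at 0 after DAC. XAGE1C, at the same position, went from 0.222 FPKM to 0. Both have copies at more than 1 locus and 0% unique windows, and the bounds of XAGE1A overlapped. The call is absent when only symbols at 1 locus are counted. XAGE3 and XAGE5, with 99.3% and 95.5% unique windows, were at 0 in both libraries.

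In HMLER all 16 listed antigens were at 0 FPKM before treatment. Of the 106 antigens 16 (15.1%) were in the HMLER table, against 7.85% of all symbols measured in MDA-MB-231. All 16 lie at 1 locus, which makes 25.8% of the 62 antigens at 1 locus and 0 of the 44 at more than 1. The share over all symbols at 1 locus was not computed, so the 25.8% has no matching background. Of the symbols in the table, 71 of 1854 (3.83%) were at 0 in untreated HMLER, and 16 of those 71 (22.5%) were antigens. Among the 23617 symbols measured in MDA-MB-231, 106 were antigens. By family, MAGEA had 4 listed, PAGE 3, MAGEC, SPANX and SSX 2 each, and MAGEB, CSAG and CT45A 1 each, and their DAC levels summed to 131 FPKM. The lowest was MAGEC1 at 1.13 FPKM, just above the limit of the table.

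The 16 antigens listed in HMLER differed in how far their levels in MDA-MB-231 changed. By the most abundant transcript the DAC value was above the untreated one in 15 of them, MAGEA3 being the other. Summed over transcripts, MAGEA12 was also lower after DAC. The rule called 5 higher in both lines: MAGEB2, MAGEC1, MAGEC2, SPANXC and SPANXE. With no limit on low values, 11 were over 2-fold in both, since PAGE1, PAGE2, PAGE5, SSX1, SSX3 and CT45A5 joined at under 1 FPKM in MDA-MB-231. The matching counts over all symbols were not computed, so neither the 5 nor the 11 has a background to be read against. After DAC 14 of the 16 had the higher FPKM in HMLER. The 16 were selected by a DAC level above 1 FPKM in HMLER, with no such limit in MDA-MB-231. The selection alone therefore favours higher values in HMLER. The lines were processed into separate tables, so this order of levels was not tested.

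**Figure D5:**
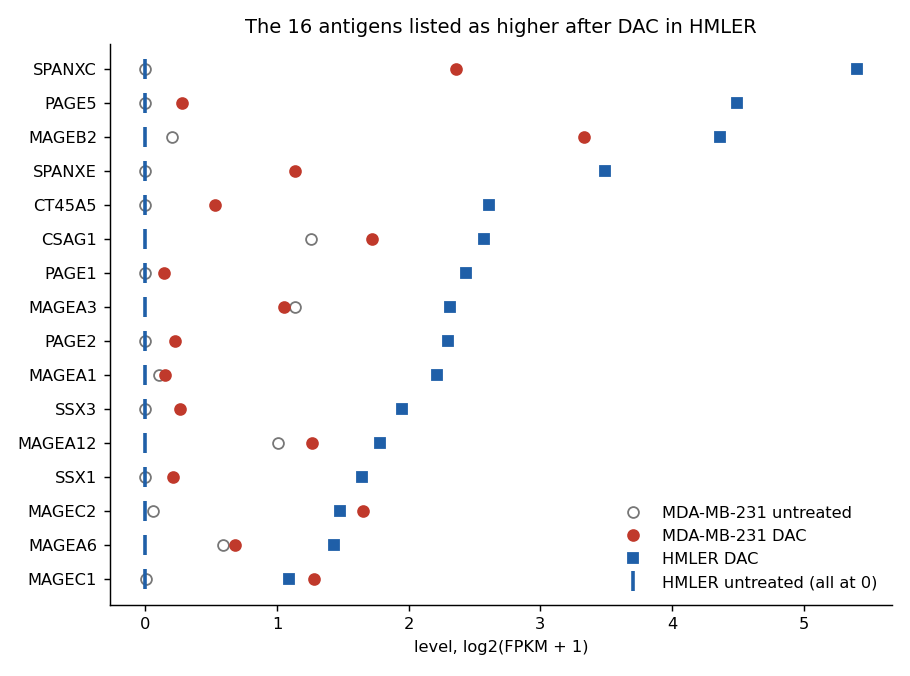
Levels as log2(FPKM + 1) of the 16 antigens listed in HMLER, for untreated HMLER (blue ticks, all at 0), HMLER after DAC (blue squares), untreated MDA-MB-231 (open circles) and MDA-MB-231 after DAC (red circles), 1 value per condition. Squares lie to the right of the red circles for 14 antigens, in a set selected by its DAC level in HMLER. Open circles stand away from 0 for MAGEA3, MAGEA6, MAGEA12 and CSAG1.

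Of the 12 symbols taken in by their letters, 7 were above 0 in both MDA-MB-231 libraries and 5 in neither. CTAGE5, which acts in export of cargo from the endoplasmic reticulum, was at 2.64 FPKM (0.252 to 5.03) untreated and at 6.20 FPKM (2.40 to 10.0) after DAC by its largest transcript, but at 6.08 and 7.25 FPKM summed over its transcripts. CTAGE1 went from 0.183 to 0.724 FPKM, or 32 reads (21.9 to 45.2) to 126 (105 to 150). CTAGE7P was at 0.599 and 0.773 FPKM, CTAGE11P at 0.0967 and 0.224 FPKM, and CTAGE10P at 0.0932 and 0.0682 FPKM. CTAGE4, CTAGE6P, CTAGE9, CTAGE15P and MAGEA10-MAGEA5 were at 0 in both libraries. SSX2IP, an SSX-binding protein of the centrosome, was at 6.69 and 6.84 FPKM. SPANXA2-OT1 was at 0.0466 and 0.203 FPKM in MDA-MB-231, and in HMLER at 0.190 and 1.15 FPKM.

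Other X-linked cancer-testis genes were counted by the same rules. Of 18 such genes in the MDA-MB-231 table, 4 were called higher and 0 lower, where the shares over all symbols were 6.05% and 3.07%. The bounds of all 4 overlapped between the conditions. FMR1NB, a testis antigen, was at 0 untreated in both lines and reached 1.99 FPKM in MDA-MB-231 and 10.9 FPKM in HMLER. IL13RA2, a decoy receptor for an interleukin, was at 0.923 and 3.86 FPKM in MDA-MB-231 and at 0.347 and 3.09 FPKM in HMLER. PLAC1, a placental surface protein, was at 1.02 and 2.59 FPKM in MDA-MB-231 and at 0.767 and 2.67 FPKM in HMLER. CXorf61 was already at 18.1 FPKM in untreated MDA-MB-231 and was at 14.2 FPKM after DAC.

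The type II MAGE genes, which are expressed in many tissues and share the MAGE fold, were not called in either direction. Of 12 in the table, 4 reached 1 FPKM, with a median log2 change of -0.05. MAGED2 was at 8.31 and 9.99 FPKM and MAGEF1 at 40.5 and 32.0 FPKM. None of them was listed in HMLER. Of the 5 ubiquitin ligase partners of MAGE proteins, 3 reached 1 FPKM and 0 were called in MDA-MB-231. TRIM27, whose accession lies at more than 1 locus, was at 0.00848 FPKM untreated and at 0 after DAC. TRIM28, bound by MAGEA3, MAGEA6 and MAGEC2, was at 315 FPKM untreated and 171 FPKM after DAC, and LNX1 was listed in HMLER, at 0.367 and 1.43 FPKM.

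Of 14 genes that regulate these promoters, 3 were called higher in MDA-MB-231 and none lower, beside 6.05% and 3.07% of all symbols. The bounds of all 3 overlapped between the conditions. Of the 14, 12 reached 1 FPKM, and EHMT2, at more than 1 locus, was at 0 in both libraries. By its largest transcript, the de novo methyltransferase DNMT3A went from 1.77 to 4.52 FPKM and DNMT3B from 2.30 to 5.39 FPKM. The third was E2F6, a repressor of germ-line genes, whose largest transcript went from 0.217 to 2.37 FPKM. Sums over transcripts were not examined for these genes. A shift between transcripts and a rise of the whole gene therefore cannot be told apart. DNMT1, the maintenance enzyme that DAC traps as a protein, was at 102.2 and 86.8 FPKM. CTCFL, the germ-line paralog of CTCF, was at 0 untreated and 0.0992 FPKM after DAC.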

How the data were processed

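RNA of MDA-MB-231 and HMLER cells was sequenced as polyadenylated RNA. The deposited FPKM come from the authors' TopHat2 alignment to hg19 and their Cuffdiff run, by RefSeq transcript; no versions are given in the sources used here. The deposited tables also hold the authors' fold changes, p-values and q-values, which were not used. Reads shared by near copies may have been split or dropped in that step, and how is not stated.

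Each symbol was represented by the transcript most abundant over both conditions. Higher meant a ratio over 2, lower under 0.5, each with at least 1 FPKM in at least 1 library; log2 changes used a pseudocount of 1, which understates changes of low genes. What 1 read is worth was found from values of at most 5 reads of long transcripts, with 200 bases taken off the length. Of 598 untreated and 596 DAC values, 100% lay within 0.1 of whole reads, where 20% would for a step set beforehand. The step and the 200 bases were chosen to give the highest share, so 20% is not the chance level here. Larger read counts are extrapolated from this step. Reads are given for symbols with 1 transcript of at least 1000 bases. FPKM are not counts, so no count test was run. Exon windows used GENCODE models on GRCh37 (the hg19 assembly), and promoters from RefSeq (GRCh38.p14). Only the ratio calls and the read step were tried on simulated data. The ratio calls were tried on genes well above 0, so calls near 0 were not checked. The exon-window and motif steps had no such check.

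Members and gene lists were chosen with earlier results of these data known. Genes named were members higher or lower in MDA-MB-231, members in the HMLER table, the highest member of each family and symbols taken in by letters; others named were chosen after their values were seen. Alternatives were other filters, thresholds, pseudocounts and transcript choices. Software was matplotlib 3.10.9, scipy 1.17.1, pandas 2.3.3, numpy 2.4.6 and Python 3.11.15.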

Additional observations from a re-analysis of the deposited data

Results flagged for a closer look

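MAGEA3 was higher after DAC in HMLER and slightly below its untreated level in MDA-MB-231. Its ratio of DAC to untreated was 0.890 in MDA-MB-231, from 1.20 to 1.07 FPKM, while in HMLER it went from 0 to 3.97 FPKM. The difference between the lines was not tested, and the reads in MDA-MB-231 lie within counting error of each other. The median ratio of all symbols at 1 FPKM or more in both libraries was 0.908, so no downward change is shown in MDA-MB-231. Of the exon windows of MAGEA3, 36.1% were unique at 50 bases and 56.4% at 100 bases.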

How the results depend on the processing

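The 6 antigens higher in MDA-MB-231 and the 5 higher in both lines kept those counts with 1 FPKM added to both values, with transcripts summed or taken singly, after division by the median ratio, at a 4-fold threshold and with status OK. With no limit on low values the counts were 28 higher, 3 lower and 11 in both lines. With 1 FPKM required in both conditions they were 0 higher, 0 lower, 0 in HMLER and 0 in both, since the limit removes genes that started near 0. With 5 FPKM in at least 1 condition they were 1 higher, 5 in HMLER and 1 in both. Where the bounds had to separate, 2 were higher, 0 lower, 2 higher in both and 1 switched on. Of those switched on, 3 were at 0 untreated with 0.5 FPKM or more after DAC. Counting only symbols at 1 locus, an alternative added after the data were seen, left 0 lower. The median log2 change of 1.20 became 0.00 with no limit and 3.77 with 0.1 as the pseudocount. It was 0.26 when both conditions needed 1 FPKM, a limit that left only MAGEA3, MAGEA12 and CSAG1. Under the limit of 5 FPKM it was 0.21, the midpoint of MAGEB2 (3.13) and XAGE1A (-2.71), and it describes neither. With transcripts summed, the log2 change of MAGEA12 turned to -0.070 and that of SSX2IP to -0.18, because other transcripts of these symbols were lower after DAC. No paired analysis was possible because each line has 1 value per condition, and for the same reason no replicate could be left out. Antigens with near copies and levels under 1 FPKM are the least certain values here.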
